A study of Mus musculus with 4 samples.

Results

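Pvalb and Sst interneurons were taken from a single-nucleus RNA-seq experiment on mouse cortex 21 days post-injury (dpi), in which a photothrombotic lesion, a focal ischaemic injury in which a dye in the blood is activated by light, had been placed in the cortex. Members were chosen from measured counts of unique molecular identifiers (UMIs, each standing for 1 captured RNA molecule). A barcode was kept if it held at least 3000 gene UMIs, at least 4 UMIs of Gad1 and Gad2 summed, at most 1 of Slc17a7, at most 4 of Rgs9, Drd1 and Drd2 summed, and at least 3 of Pvalb, Sst, Lhx6 and Sox6 summed, this last sum also having to exceed that of Adarb2 and Vip. This gave 394 nuclei of 23489 barcodes in all and of 14119 barcodes with 3000 or more UMIs.

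The control mice were wild type. The Cxcl12-cKO mice carried Col1a2-creER, a tamoxifen-inducible Cre recombinase driven by a collagen promoter active in fibroblasts, and a floxed Cxcl12 gene, which encodes a chemokine. Both genotypes received the photothrombotic injury, and each was represented by 1 male and 1 female mouse whose tissue was pooled into 1 library, so that genotypes could be set side by side but not tested. Mice were between 7 and 21 weeks of age, the general range in the study's methods. Nuclei of the lesion and of the perilesional parenchyma were labelled with separate multiplexing tags, mixed at 75% lesion to 25% parenchyma, sorted on the DNA stain DAPI and sequenced from the 3′ end of transcripts. The members numbered 154 in control parenchyma, 171 in Cxcl12-cKO parenchyma, 45 in control lesion and 24 in Cxcl12-cKO lesion. The comparison of genotypes addresses whether neurons of mice with Cxcl12-deficient fibroblasts differ in interferon-induced and synaptic programmes, and the tags allow lesional and parenchymal interneurons to be compared within each library.

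Cortical interneurons that express Pvalb or Sst arise in the medial ganglionic eminence (MGE) of the embryo, where the transcription factors Lhx6 and Sox6 direct their migration and differentiation. Interneurons marked by Pvalb, which encodes the calcium buffer parvalbumin, fire fast trains of brief action potentials and inhibit the soma and proximal axon of their targets. Interneurons marked by Sst, which encodes the peptide somatostatin, include the Martinotti cells, whose axons rise to layer 1 and inhibit distal dendrites. A separate family marked by Adarb2 and Vip comes from the caudal ganglionic eminence (CGE) and includes cells that mainly inhibit other interneurons.

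The placement of each nucleus in lesion or parenchyma rests on the following tag oligonucleotides, which are shown because every regional value below depends on them. They are written 5′ to 3′ in capitals throughout, with no part singled out.
CMO310, control parenchyma: GCAGGAGGTATCAAT
CMO309, control lesion: GTTGATCTATAACAG
CMO312, Cxcl12-cKO parenchyma: ACATGGTCAACGCTG
CMO311, Cxcl12-cKO lesion: GAATCGTGATTCTTC
In the members the nucleus's own tag made up 96.1%, 98.4%, 96.1% and 98.0% of tag UMIs in the order listed, and the lowest share in any member was 83.1%. The tag of the other region of the same library made up 3.94% and 3.93% in the parenchymal nuclei and 1.55% and 2.00% in the lesional nuclei.

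Sst is one of the genes that define the population, and its level differed between the regions as given below. The 60 bases that precede and approach its transcription start, from position -74 to -15, are printed from the RefSeq promoter set on build GRCm38.p6 (chr16:23890859-23890918, minus strand, written 5′ to 3′ along the gene), a build older than the GRCm39 used for the counts.
Sst promoter: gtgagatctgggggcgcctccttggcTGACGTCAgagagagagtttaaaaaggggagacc
The capitals mark TGACGTCA, the palindromic cAMP response element, at -48 to -41. This word reads the same on both strands and occurred in 588 of 32851 promoters of 300 bases in that set (1.79%), and in 1 of 13 promoters of the 12 neuropeptide genes that had an entry, the Sst promoter. It is a description of the sequence, and no binding was measured.

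The members' gene UMIs summed to 2852610 in control parenchyma, 3372819 in Cxcl12-cKO parenchyma, 709295 in control lesion and 316999 in Cxcl12-cKO lesion, and single nuclei held between 3793 and 62284. Median UMIs per nucleus were 16280.5, 17819, 15058 and 12042 in that order. Levels are given in CPM, the UMIs of a gene per 1000000 gene UMIs summed over a group of nuclei. Brackets hold exact 95% intervals that cover counting error only and not differences between mice. Reads of nuclei are largely intronic and were not scaled for gene length, so CPM values were compared for the same gene and not between genes. No member barcode occurred as a member in both libraries, although 47 barcode sequences were shared between the libraries as a whole. UMIs of both Xist and Y-linked genes were found in 67 of the 394 members, and no doublet caller was run. Cxcl12 itself was at 0.351 and 1.78 CPM in control and Cxcl12-cKO parenchyma, where fibroblasts and not neurons carry the deletion, and 3′ counts of interneurons do not check it.

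Sox6 carried most of the selection. It held 7174 UMIs over the members, 80.7% of the marker sum, and was seen in 381 nuclei. Lhx6 was seen in 262 nuclei with 522 UMIs, Pvalb in 143 with 307 and Sst in 131 with 888. Lhx6, Pvalb and Sst were each missed in many members, so a nucleus without their UMIs may still be of that type. The reverse also holds, and members whose only marker was Sox6 may not be Pvalb or Sst cells. For example, such a member of control parenchyma held 15 Sox6 and 20 oligodendrocyte precursor UMIs. Another, of Cxcl12-cKO parenchyma, held 9 Sox6, 27 oligodendrocyte and 10 precursor UMIs. Few nuclei lay near the marker limit. Among the 715 GABAergic nuclei that passed the striatal and excitatory limits, 11 had a marker sum of 3 and 7 had a sum of 4 just inside, while 9 had a sum of 1 and 8 a sum of 2 just outside. The limit on Gad1 and Gad2 cut through a more even distribution, with 47 nuclei at a sum of 4 and 44 at 5 inside, and 43 at 3 and 44 at 2 outside. A further 21 GABAergic nuclei had a marker sum of 3 or more that did not exceed their Adarb2 and Vip.

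Genes of MGE-derived cortical interneurons that the limits did not use were then examined. The 12 on the list, several of which other interneurons also express, summed to 17059.8 and 16629 CPM in the members, 12570.3 and 12016 CPM in Adarb2 interneurons and 534 and 573 CPM in excitatory neurons. Nxph1, encoding a neurexin ligand, was at 3372 and 3547 CPM in the control and Cxcl12-cKO members of the parenchyma, against 1626 and 1368 CPM in the 109 and 123 parenchymal Adarb2 interneurons picked by the mirrored limits and 18.6 and 17.0 CPM in the 1541 and 1297 excitatory neurons. Satb1, a chromatin organizer required for the maturation of Sst cells, was at 293 and 306 CPM in the members, 19.3 and 14.6 in Adarb2 interneurons and 104 and 106 in excitatory neurons. The transcription factor gene Maf was at 280.4 and 264 CPM in the members, 267 and 227 in Adarb2 interneurons and 9.60 and 10.4 in excitatory neurons. In Nxph1 and Satb1 the members stood well above both classes in both libraries, and in Maf their level was near that of Adarb2 interneurons.

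Genes shared by all forebrain GABAergic neurons were not particular to the members. Slc32a1, which loads GABA into vesicles, was at 36.1 and 37.7 CPM in the members, 45.6 and 27.1 in Adarb2 interneurons and 0.361 and 0.372 in excitatory neurons. The long non-coding RNA Dlx6os1 was at 481 and 495 CPM in the members, 2307 and 1742 in Adarb2 interneurons and 0.903 and 2.03 in excitatory neurons. Markers of other GABAergic populations gave the following sums. The summed CGE list (Lamp5, Sncg, Cck, Calb2, Npas1, Prox1, Htr3a, Cnr1, Nr2f2 and Sp8) was at 82.7 and 97.0 CPM in the members and 722 and 798 CPM in Adarb2 interneurons. The list of striatal and pallidal interneuron genes, which includes the cholinergic markers Chat and Slc5a7, summed to 10.2 and 15.1 CPM, and the chandelier cell list to 25.2 and 34.7 CPM. The list of striatal projection genes outside the rule summed to 1451 and 1403 CPM in the members and was higher in the other classes, at 2207 and 2106 CPM in Adarb2 interneurons and 2291 and 2107 CPM in excitatory neurons. Because the classes were picked on UMIs of the same nuclei, all these levels are descriptions with no test.

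Of the GABAergic nuclei, the members made up nearly the same share in every matrix. They were 154 of 277 in control parenchyma (55.6%, 49.5 to 61.5), 171 of 310 in Cxcl12-cKO parenchyma (55.2%, 49.4 to 60.8), 45 of 85 in control lesion (52.9%, 41.8 to 63.9) and 24 of 43 in Cxcl12-cKO lesion (55.8%, 39.9 to 70.9), with exact binomial intervals. All 4 intervals overlapped. As a share of barcodes with 3000 or more UMIs, the members fell from 4.97% and 5.70% in control and Cxcl12-cKO parenchyma to 1.11% and 0.606% in the lesions, where non-neuronal nuclei were numerous. In control lesion the share among GABAergic nuclei was 60.5% in nuclei assigned to the female mouse and 36.7% in those assigned to the male mouse.

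Nuclei in which Pvalb, Sst, both or neither were seen were then treated apart. In control parenchyma 51 nuclei held Pvalb and no Sst UMI (Pvalb-seen), 57 held Sst and no Pvalb (Sst-seen), 4 held both and 42 held neither. In Cxcl12-cKO parenchyma the numbers were 59, 53, 6 and 53. The Sst-seen share was 37.0% (29.4 to 45.2) in control and 31.0% (24.2 to 38.5) in Cxcl12-cKO parenchyma, with overlapping intervals. The Pvalb-seen share was 33.1% and 34.5%. Each count was small per nucleus: the median was 2 Pvalb UMIs in Pvalb-seen nuclei of either library, and 4 and 6 Sst UMIs in control and Cxcl12-cKO Sst-seen nuclei. The nuclei with both were 10 of 325 in the parenchyma.

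The Sst-seen share was smaller among lesional members, with intervals that overlapped those of the parenchyma in both libraries. In control lesion 16 nuclei were Pvalb-seen, 9 Sst-seen, 0 both and 20 neither, and in Cxcl12-cKO lesion 7, 2, 0 and 15. The 0 of 45 and 0 of 24 with both allow shares of up to 6.67% and 12.5% at a limit of 3 nuclei, and their exact intervals reach 7.87% and 14.2%. The Sst-seen share was therefore 20.0% (9.58 to 34.6) and 8.33% (1.03 to 27.0), against Pvalb-seen shares of 35.6% and 29.2%. With every nucleus thinned to 3000 UMIs, Sst was seen in 22.7% and 20.5% of control and Cxcl12-cKO parenchymal members and in 11.1% and 4.17% of lesional members. Unthinned, Sst was seen in 1.82% and 3.24% of parenchymal excitatory neurons, whose median depth was 22661 and 24793 UMIs. Thinned Pvalb was seen in 10.4% and 11.7% of parenchymal members and in 0% and 8.33% of lesional members, and unthinned in 0.909% and 1.16% of parenchymal excitatory neurons. The Sst-seen order of the matrices, parenchyma above lesion in both libraries, was the same with and without thinning. Fewer Sst cells and less Sst RNA per cell cannot be told apart from these shares.

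**Figure D1:**
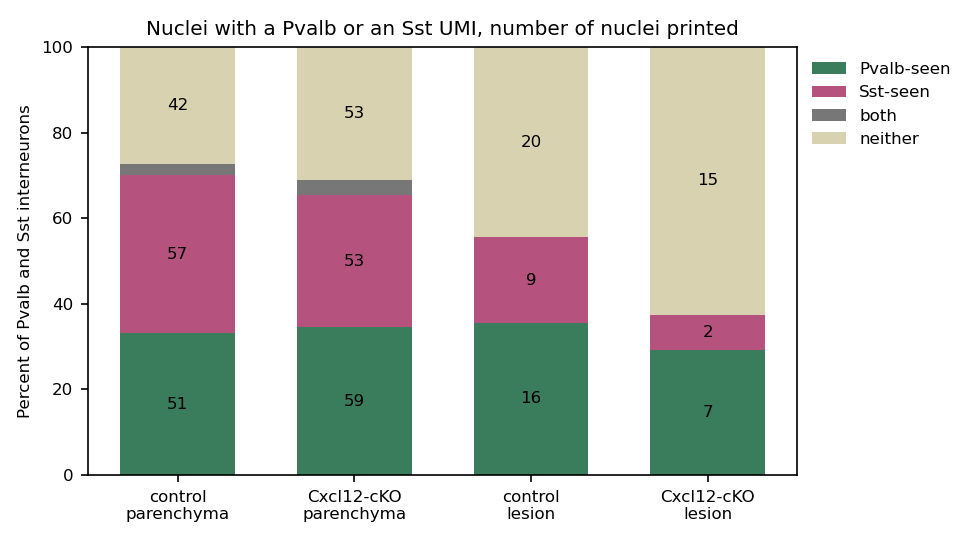
Percent of Pvalb and Sst interneurons (vertical axis) in which Pvalb only, Sst only, both or neither were seen, as stacked bars for the 4 matrices (154, 171, 45 and 24 nuclei from left to right). The Sst-only segment was 37.0% and 31.0% of the bar in control and Cxcl12-cKO parenchyma and 20.0% and 8.33% in the lesions.

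The next paragraphs describe how Pvalb-seen and Sst-seen nuclei of the parenchyma differed. Since both groups were set by UMIs of the same nuclei, the differences are descriptions, with no test, and a gene is counted as higher in one group where it was past 1.5-fold in the same direction in both libraries. By that count 508 of 5895 genes (8.62%) were higher in Pvalb-seen nuclei and 512 (8.69%) in Sst-seen nuclei. All 12 measured genes of a list typical of Pvalb cells were higher in Pvalb-seen nuclei, and all 12 of a list typical of Sst cells were higher in Sst-seen nuclei. Both lists consist of genes known for this division. The Pvalb-seen nuclei were deeper, with median UMIs of 21018 and 20006 against 14226 and 17631 in Sst-seen nuclei.

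A release sensor and several potassium and sodium channel genes stood on the Pvalb side. Syt2, the calcium sensor for synchronous release at basket cell terminals, was at 196 and 148 CPM in control and Cxcl12-cKO Pvalb-seen nuclei and only 0 and 3.88 CPM in Sst-seen nuclei. Kcnc1, encoding a Kv3 potassium channel that shortens the action potential, was at 514 and 491 CPM in Pvalb-seen nuclei and 143 and 136 CPM in Sst-seen nuclei. Kcna1, a Kv1 channel of the axon, was at 175 and 136 against 41.5 and 45.5 CPM, and Scn1a, the sodium channel gene whose loss in Pvalb cells causes epilepsy, at 633 and 656 against 412 and 400.1 CPM. Of 18 channel genes measured, 7 were higher in Pvalb-seen nuclei and 1, the N-type calcium channel gene Cacna1b, in Sst-seen nuclei. Over all genes these shares were 8.62% and 8.69%.

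Metabolic and surface genes of Pvalb cells followed. Ppargc1a, a coactivator for mitochondrial genes, was at 326 and 290.5 CPM in Pvalb-seen and 115 and 92.0 CPM in Sst-seen nuclei. Erbb4, the neuregulin receptor through which excitatory input to Pvalb cells forms, was at 11218 and 12739 CPM against 4022 and 1817 CPM. Its Sst-seen level was the one that differed between the libraries. Perineuronal nets, the proteoglycan coats that surround many Pvalb cells, were represented by 3 measured genes, of which Bcan, encoding brevican, was at 68.2 and 84.6 CPM in Pvalb-seen and 8.97 and 10.7 CPM in Sst-seen nuclei. The other perineuronal net genes did not pass the fold in both libraries.

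GABA-A receptor subunits were divided by kind. Of 10 measured, 6 were higher in Pvalb-seen nuclei, among them Gabra4, Gabrb2, Gabrd and Gabrg3. Over all genes 8.62% were higher in Pvalb-seen and 8.69% in Sst-seen nuclei. Gabrd, whose δ subunit serves tonic inhibition, was at 71.5 and 66.7 CPM in Pvalb-seen and 13.4 and 7.75 CPM in Sst-seen nuclei. Gabra2 and Gabrb1 stood the other way. Gabra2 was at 36.6 and 30.1 CPM in Pvalb-seen nuclei and 221 and 276 CPM in Sst-seen nuclei.

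Several glutamate receptor and synaptic genes stood on the Sst side. Elfn1, a postsynaptic protein that recruits presynaptic mGluR7 and gives excitatory inputs to Martinotti cells their low release probability, was at 161 and 226 CPM in Sst-seen and 7.48 and 4.07 CPM in Pvalb-seen nuclei. Grin3a, encoding a glycine-binding NMDA receptor subunit, was at 1278 and 1423 CPM against 20.8 and 12.2 CPM. Reln, the secreted protein reelin, was at 833 and 996 against 74.8 and 26.9 CPM, and the synaptic vesicle gene Synpr at 1307 and 1278 against 54.9 and 11.4 CPM. Of 21 glutamate receptor genes measured, 7 were higher in Sst-seen nuclei, among them Grik1, Grik3, Grin3a, Grm7 and Grm8, and 0 in Pvalb-seen nuclei. The shares over all genes were 8.69% and 8.62% in that order.

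Peptides and modulator receptors added to the contrast. Npy, which encodes neuropeptide Y, was at 90.8 and 150.2 CPM in Sst-seen nuclei and 13.3 and 6.51 CPM in Pvalb-seen nuclei, and Crhbp, the binding protein of corticotropin-releasing hormone, at 57.2 and 78.5 against 29.9 and 26.0 CPM. Chrm3, a Gq-coupled muscarinic receptor, was at 1396 and 1776 against 382 and 325 CPM. Oprm1, the μ-opioid receptor, was at 69.5 and 67.8 against 0.831 and 8.14 CPM, and Oprd1, the δ-opioid receptor, lay on the opposite side at 70.6 and 57.2 in Sst-seen and 119 and 124 CPM in Pvalb-seen nuclei. The opioid receptors thus split between the groups. Of 10 modulator receptors measured, 4 were higher in Sst-seen and 2 in Pvalb-seen nuclei, against 8.69% and 8.62% of all genes.

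A rare long-range projection type marked by Chodl, Nos1 and Npy was present in single nuclei. Chodl was seen in 2 of 57 control and 2 of 53 Cxcl12-cKO Sst-seen nuclei of the parenchyma, all of which also held Nos1 and Npy UMIs. These nuclei held 46 of the 89 Nos1 UMIs of control Sst-seen nuclei and 33 of the 47 in Cxcl12-cKO, so that levels of Nos1, the neuronal nitric oxide synthase, rested on few nuclei.

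Of 27 synapse organizers measured, 8 were higher in Pvalb-seen and 3 in Sst-seen nuclei, against 8.62% and 8.69% of all genes. Lrrc4c, encoding the netrin-G ligand NGL1, was at 5152 and 5385 CPM in Pvalb-seen and 1559 and 873 CPM in Sst-seen nuclei, and Cntnap4, a neurexin relative needed for GABA release from these cells, at 1003 and 939.8 against 316 and 210.2 CPM. Nrxn3, a presynaptic neurexin, was higher in Sst-seen nuclei, at 11368 and 12955 CPM against 6964 and 6468 CPM.

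Beyond the lists, the genes with the largest differences in both libraries were named by size. On the Pvalb side Mybpc1, a myosin-binding protein gene, had 93.1 and 60.2 CPM in Pvalb-seen nuclei and 0 and 0.969 in Sst-seen nuclei. Pde5a, a cGMP phosphodiesterase gene, had 234 and 205 CPM in Pvalb-seen nuclei and 12.3 and 7.75 in Sst-seen nuclei. Others named by size on this side were Syt2, Adamtsl5, Gm26633, Gfra1, 6330411D24Rik, Tmem108 and Lama3. On the Sst side Unc13c, a vesicle priming gene, had 2.49 and 2.44 CPM in Pvalb-seen nuclei and 387 and 488 in Sst-seen nuclei. Rgs6, a regulator of G-protein signalling, had 11.6 and 11.4 CPM in Pvalb-seen nuclei and 583 and 749.9 in Sst-seen nuclei. Man1a, Pcsk5, Npas1, Gda, L3mbtl4, Gm28175, 4930509J09Rik and Grin3a made up the rest of that side. Sst-seen nuclei were at or near 0 CPM for Mybpc1, and Pvalb-seen nuclei were near 0 for Unc13c.

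The 95 parenchymal nuclei in which neither gene was seen stood nearer the Pvalb-seen than the Sst-seen nuclei in both lists summed here. Single genes differed, as given below, and these nuclei were not assigned to either type. The Pvalb-type list summed to 15794 and 12716 CPM in control and Cxcl12-cKO nuclei of this group, against 16339 and 17699 CPM in Pvalb-seen and 5936 and 3374 CPM in Sst-seen nuclei. Most of that sum is Erbb4, at 12267 and 9621 CPM in the nuclei with neither, so the Pvalb-type sum mainly reflects a single gene. The Sst-type list summed to 1328 and 1228 CPM, against 713 and 524 CPM in Pvalb-seen and 5908 and 6451 CPM in Sst-seen nuclei. Syt2 in the nuclei with neither lay between the groups, at 48.5 and 31.1 CPM. Htr2c, a serotonin receptor gene, was highest in them, at 221 and 343 CPM against 32.4 and 52.9 CPM in Pvalb-seen and 40.3 and 31.0 CPM in Sst-seen nuclei. Their median depth was 14553 and 16345 UMIs, close to that of the Sst-seen nuclei.

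**Figure D2:**
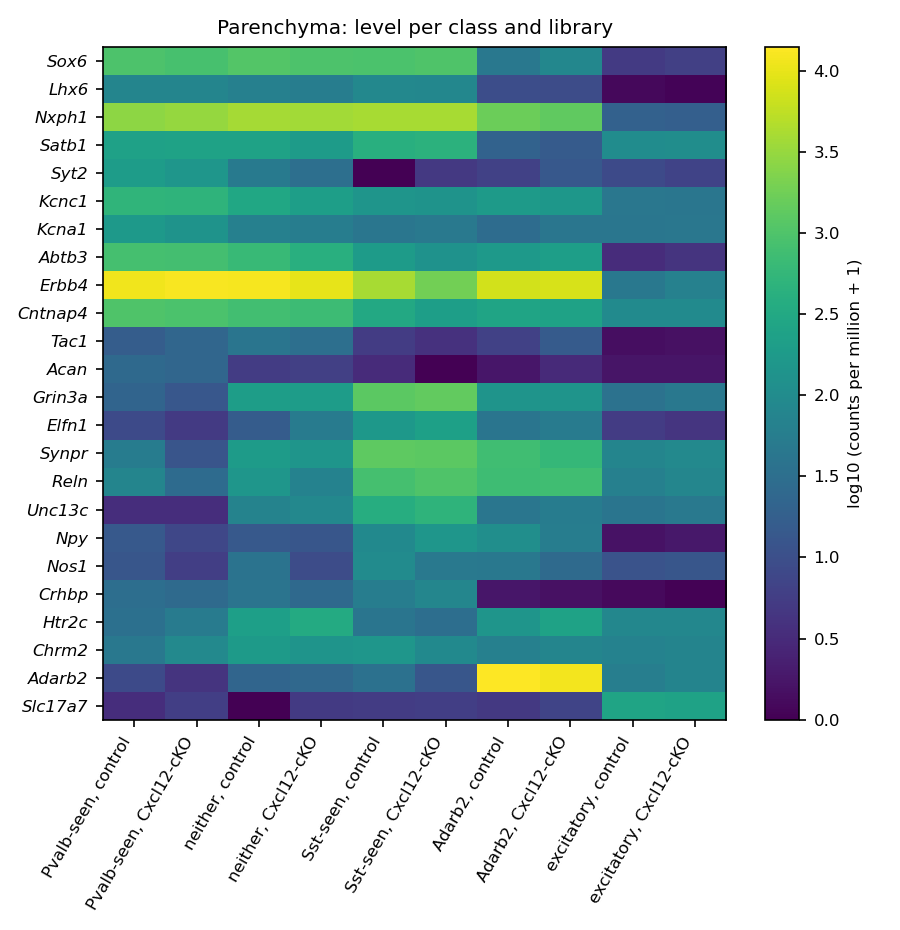
Levels of 24 genes (one per line) as log10(CPM + 1) in parenchymal Pvalb-seen, neither, Sst-seen, Adarb2 and excitatory nuclei, with control and Cxcl12-cKO columns side by side. Syt2, Kcnc1 and Kcna1 are brightest in the Pvalb-seen columns and Elfn1, Grin3a and Unc13c in the Sst-seen columns of both libraries, while Reln is also bright in the Adarb2 columns.

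The genotype comparison used the parenchymal members, 154 control and 171 Cxcl12-cKO nuclei, as 1 sum per library. With 1 library per genotype it has no replicate check and no test. Genes with at least 100 UMIs over both sums are counted as higher or lower past 1.5-fold: 119 of 7287 genes (1.63%) were past it on the higher side in Cxcl12-cKO and 67 (0.919%) on the lower side. With the percentile filter of the study the shares were 1.18% and 1.24%, and without nuclei carrying non-neuronal RNA 1.27% and 1.27%, so the excess on the higher side was not seen with either set of nuclei. The median log2 ratio over all genes was 0.002. Of the genes past the fold, 104 of 119 and 64 of 67 had the same direction in nuclei assigned to the female and to the male mice, a split of the same libraries and no replicate.

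Interferon-response genes were barely detected in these interneurons. Of 35 on the list 1 reached 100 UMIs: Stat2, a transcription factor of the type I interferon pathway, at 18.9 and 22.8 CPM in control and Cxcl12-cKO (log2 ratio 0.27). The 35 genes summed to 72.9 CPM (63.3 to 83.5) in control and 86.9 CPM (77.2 to 97.4) in Cxcl12-cKO nuclei. The log2 ratio of the sums was 0.25 (-0.01 to 0.52), with an interval that includes 0. Female nuclei alone gave a log2 ratio of 0.01, and its interval of -0.37 to 0.38 includes 0. Male nuclei alone gave 0.62, and its interval of 0.16 to 1.10 excludes 0. Both ratios set 1 mouse against 1 mouse, the intervals cover counting error only, and the difference was not tested. The interferon receptor and Jak kinase genes, of which 2 reached 100 UMIs, summed to 177 and 186 CPM.

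Few synaptic genes were past 1.5-fold between the genotypes, and few genes were in all, at 1.63% higher and 0.919% lower. Of 29 synapse organizers 0 were past 1.5-fold, and their log2 ratios ran from -0.32 to 0.51. The highest was Ptprd, a presynaptic receptor phosphatase, at 1058 and 1506 CPM (0.51, 0.44 to 0.57). Of 11 GABA-A receptor subunits 1 was lower, Gabra5 of extrasynaptic receptors, at 23.1 and 14.8 CPM (-0.64, -1.20 to -0.09). The median log2 ratio was -0.0049 for synapse organizers and -0.12 for GABA-A subunits.

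Of 21 glutamate receptor genes 1 was past the fold, against 1.63% higher and 0.919% lower over all genes. Grm8, which encodes the presynaptic metabotropic receptor mGluR8, was at 88.0 and 196 CPM in control and Cxcl12-cKO members (log2 ratio 1.16, 0.95 to 1.37), with UMIs in 47 and 61 nuclei. The ratio was 1.10 in nuclei of the female mice and 1.17 in those of the male mice, and 0.82 in Pvalb-seen, 1.04 in Sst-seen and 1.42 in the nuclei with neither. In Adarb2 interneurons and excitatory neurons, where Grm8 is more abundant, it was -0.02 and 0.06. The nucleus with most Grm8 held 29.1% of its UMIs in control and 17.1% in Cxcl12-cKO, and without these nuclei Grm8 was at 63.2 and 164 CPM. The lesional members had the opposite order, at 88.8 CPM in control and 66.2 CPM in Cxcl12-cKO, on 63 and 21 UMIs. Whether the difference between the neuronal classes exceeds the variation between mice could not be tested.

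Modulator receptors gave a few more. Of 10 receptors 2 were higher, with Htr2c at 77.5 and 130.5 CPM (log2 ratio 0.75, 0.52 to 0.99) and Oprm1 at 25.2 and 40.3 CPM (0.67, 0.25 to 1.11). Of 4 axon injury and regrowth genes 1 was higher, Gap43 of growth cones, at 53.3 and 80.6 CPM (0.60, 0.31 to 0.89). Over all genes 1.63% were past the fold on the higher side and 0.919% on the lower side. Immediate early genes, which report recent activity, had 0 of 2 past the fold and summed to 183 and 186 CPM.

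Of the genes typical of Pvalb cells 0 of 13 were past the fold in the members as a whole, and of those typical of Sst cells 1 of 13. That gene was Nos1, at 44.5 and 20.2 CPM (log2 ratio -1.14, -1.59 to -0.71), seen in 30 and 17 nuclei, with 18.1% and 47.1% of its UMIs in 1 nucleus. Pvalb itself was at 45.9 (38.4 to 54.5) CPM in control and 41.2 (34.6 to 48.7) CPM in Cxcl12-cKO members, and Sst at 130.4 (117 to 144) and 148 (135 to 161) CPM. Both intervals overlapped for either gene. The summed Pvalb-type list had a genotype log2 ratio of -0.81 (-0.88 to -0.75) in Sst-seen nuclei and 0.12 (0.09 to 0.14) in Pvalb-seen nuclei, and Erbb4 made up most of its control sum in Sst-seen nuclei. No perineuronal net gene of 4 and no GABA synthesis, packaging or uptake gene of 8 was past the fold. Over all genes only 1.63% were past it on the higher side and 0.919% on the lower side. Counts of 0 in such short lists therefore do not set them apart.

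The genes named by size were mostly less abundant. Gpc3, a glypican, was at 8.06 and 37.7 CPM in control and Cxcl12-cKO (log2 ratio 2.20, 1.57 to 2.93), and its ratio was 2.49 for females and 0.60 for males. Dpyd, of pyrimidine breakdown, was at 11.2 and 47.4 CPM (2.06), with 2.68 for females and 0.47 for males. Gm45341, Gm2516, Dchs2, Gm45323 and Crim1 were the other nuclear-encoded genes on the higher side, with log2 ratios of 2.11, 1.83, 1.78, 1.73 and 1.66. The naming rule required the same direction in both sexes, and all 7 ratios were further from 0 in the female mice than in the male mice. In most of them the nuclei with neither Pvalb nor Sst UMIs had the highest ratio, at 6.97 for Gpc3, 3.64 for Dpyd, 3.69 for Gm45341 and 3.51 for Crim1. In that order these genes held 23, 32, 25 and 25 UMIs over all control members of the parenchyma. Ratios within a group of nuclei therefore depend on the 0.5 added to each sum. The size of the 6.97 is set by it and is not a measured fold. In Pvalb-seen nuclei the ratios of these 4 genes were 0.59, 0.64, -0.27 and -0.80, and in Sst-seen nuclei 1.03, 0.25, 1.20 and 1.01. Dchs2 had -0.57 in Sst-seen nuclei, and Gm2516 was highest in Pvalb-seen nuclei, at 4.06. Single nuclei held 33.8% of the Cxcl12-cKO UMIs of Gm45341 and 39.1% of those of Gm2516. Leaving out nuclei with 5 or more UMIs of a non-neuronal list took the log2 ratio of Gpc3 to 1.01.

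The mitochondrial transcript mt-Cytb was at 49.8 and 154 CPM (log2 ratio 1.63), and it was also higher in Adarb2 interneurons (0.66) and in excitatory neurons (1.16) of the Cxcl12-cKO library. The median mitochondrial share per member was 0.0162% in control and 0.0310% in Cxcl12-cKO parenchyma. On the lower side were Thsd7b at 162 and 86.9 CPM (-0.89), Pard3b at 102 and 53.1 CPM (-0.94), Meis2 at 26.6 and 10.4 CPM (-1.35), Nos1, Rbbp8, Nectin1, Gm16552 and Ano5. Meis2, a transcription factor of striatal projection neurons, had 42.1% of its control UMIs in 1 nucleus, and its ratio was -0.03 with lesional nuclei added. Its direction differed between groups of nuclei, with -2.61 in Sst-seen, -0.03 in Pvalb-seen and 2.21 in those with neither. These rest on 76 control and 35 Cxcl12-cKO UMIs over all parenchymal members. Pard3b had ratios of -0.002 for females and -1.62 for males.

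Astrocyte RNA also differed between the libraries. Slc1a2, the glutamate transporter of astrocytes, was at 11.6 and 23.7 CPM in control and Cxcl12-cKO members (log2 ratio 1.02), and all 6 astrocyte genes summed to 20.3 and 48.9 CPM. In Cxcl12-cKO parenchyma 10 members with 5 or more astrocyte UMIs held 46.1% of these, against 1 such member in control. The oligodendrocyte list summed to 35.1 and 39.1 CPM (log2 ratio 0.16, -0.23 to 0.55) and the precursor list to 15.1 and 14.2 CPM (-0.08, -0.71 to 0.55), with intervals that include 0. Apoe, chosen after its values were seen, was at 30.8 and 49.8 CPM (0.69). The part of these nuclei in the other genotype values was not tested gene by gene, apart from the named genes recomputed without them.

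**Figure D3:**
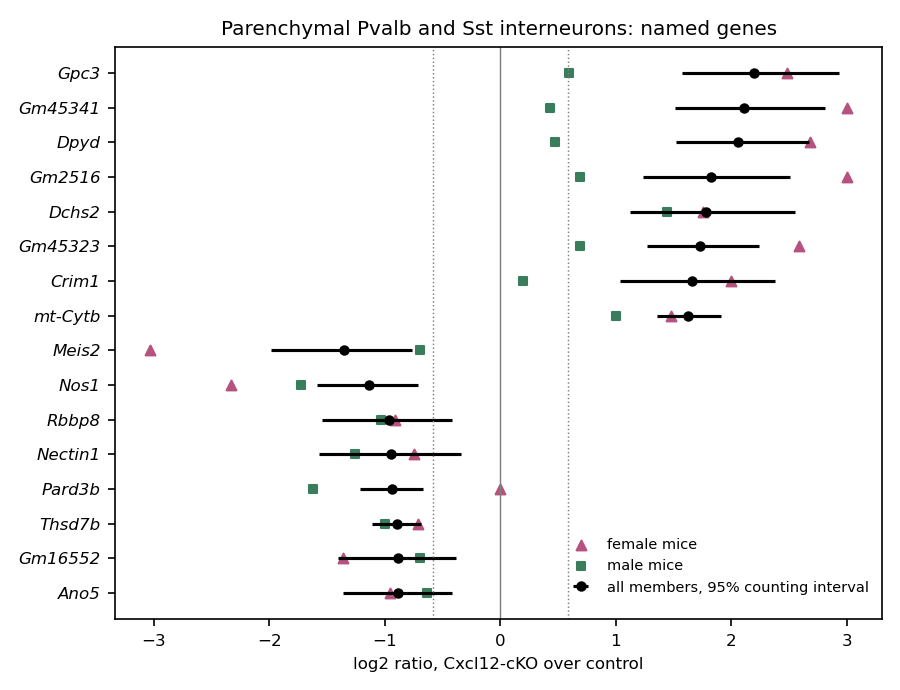
Log2 ratio of Cxcl12-cKO to control CPM (horizontal axis) for the 16 genes named by size in parenchymal members, as black dots with 95% counting intervals, with nuclei of the female mice as triangles and of the male mice as squares. Dotted lines mark 1.5-fold, and Gpc3 is the highest dot at 2.20 with its female triangle at 2.49 and its male square at 0.60.

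Lesional and parenchymal members were compared across both libraries. The 4 sums, lesion and parenchyma in each library, were fitted with a library term by edgeR's quasi-likelihood test with Benjamini-Hochberg adjustment over 11115 genes, so that the libraries, 1 of each genotype, served as the replicates of the regional difference. At adjusted p below 0.05, 227 genes (2.04%) were higher and 374 (3.36%) lower in the lesion, and 600 of these 601 had the same direction in both libraries. The calls rest on both libraries, so this agreement is largely built in and is no separate check. The lesional sums rested on 45 and 24 nuclei, whose median gene number was 4088 and 3660.5 against 4561 and 4849 in parenchyma, and whose median mitochondrial share was 0.0665% and 0.0606% against 0.0162% and 0.0310%. DESeq2 called 40 higher and 64 lower, and with all nuclei thinned to 3000 UMIs edgeR called 9 higher and 26 lower. The part of depth and of mitochondrial RNA in the single genes was not tested beyond this thinning. Members assigned to the female and the male mouse numbered 26 and 11 in control lesion and 17 and 4 in Cxcl12-cKO lesion. In parenchyma they numbered 71 and 58 in control and 74 and 60 in Cxcl12-cKO. The fit had no term for the mouse, so region and mouse are partly mixed in the regional values. The part of the mouse was not tested.

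Many of the lower genes had names of gene models or antisense transcripts. Of the 374, 222 (59.4%) had names of gene models, clones or antisense and overlapping transcripts, against 10.1% of all genes tested and 2.64% of the higher genes. This count rests on the symbols, and whether the transcripts code for protein was not examined. Abundant examples, chosen after their values were seen, were Malat1, Snhg11, Nrg3os and the neuron-rich Ube3a. Malat1, a nuclear-retained long non-coding RNA, was at 70300.5 and 65916 CPM in control and Cxcl12-cKO parenchyma and at 23577 and 25893 CPM in the lesions (log2 fold change -1.46, adjusted p = 1.40e-07 by edgeR). In Adarb2 interneurons it went from 58817 and 61192 to 22290.2 and 26245 CPM, and in excitatory neurons from 81511 and 76778 to 32733 and 34769 CPM. The lower Malat1 was therefore seen in all 3 neuronal classes.

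Nrg3os, antisense to the neuregulin gene Nrg3, was at 359 and 302 CPM in parenchyma and 29.6 and 22.1 CPM in lesion (log2 fold change -3.65, adjusted p = 3.84e-08 by edgeR). Ube3a, an imprinted ubiquitin ligase gene, was at 958 and 879.7 against 238 and 101 CPM (-2.44, adjusted p = 8.23e-07), and Snhg11 at 6091 and 5466 against 3451 and 3274 CPM (-0.78, adjusted p = 5.17e-04). These 3 and Malat1 were also called by DESeq2 and after thinning. Meg3, another abundant nuclear non-coding RNA, was at 14088 and 13475 CPM in parenchyma and 14039 and 13769.8 CPM in lesion (adjusted p = 0.968 by edgeR). The sources used here do not state whether the counting used strand, so reads of an antisense transcript and of the gene it overlaps may not be told apart.

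The genes named by size on the lower side had 0 lesional UMIs. Gm31763 held 140 UMIs in the parenchymal sums and Gm2516 held 142, which makes them at least 7.69-fold and 7.80-fold lower in the lesion against a floor of 3 UMIs over both lesional sums. Gm48727, Nell1os, Lrp8os2, Plpp4, 4930488N15Rik and Diras2 were at least 7.47-fold, 6.65-fold, 6.32-fold, 4.84-fold, 4.18-fold and 4.40-fold lower. DESeq2 called none of these 8, with adjusted p above 0.05 for Gm31763, Gm48727 and Gm2516 and none given for the other 5. The 8 on the higher side were sparse: Slc47a2, Aldh1a1, A2m, Mdfic, Gm29478, C1qc, Abcb1a and Prkcd held 14 to 29 lesional UMIs each, and of these DESeq2 called A2m and Mdfic and gave no adjusted p for the other 6. C1qc is a complement gene of microglia and Abcb1a a transporter of endothelial cells.

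Some peptide genes were lower in the lesional members by edgeR. Sst, a rule gene given without a test, was at 130.4 and 148 CPM in control and Cxcl12-cKO parenchyma and 21.1 and 9.46 CPM in the lesions, where it was seen in 9 and 2 nuclei. Outside the rule, 3 of 6 tested neuropeptide genes were lower and 0 higher, against 3.36% and 2.04% of all genes. Npy was at 39.3 and 51.9 against 19.7 and 6.31 CPM (log2 fold change -1.52, adjusted p = 0.0249 by edgeR). Cort, encoding cortistatin, a relative of somatostatin, was at 22.4 and 16.9 against 2.82 and 3.15 CPM (-2.78, adjusted p = 0.0159), and Crhbp at 39.6 and 41.5 against 16.9 and 18.9 CPM (-1.19, adjusted p = 0.0497). The lesional Npy, Cort and Crhbp rested on 16, 3 and 18 UMIs, and DESeq2 called none of the 3 (adjusted p = 0.602, 0.759 and 1). Pvalb, also given without a test, was at 45.9 and 41.2 CPM in parenchyma and 35.2 and 37.9 CPM in lesion. With 2 or more UMIs required, the Pvalb-seen share was 20.8% and 21.6% in parenchyma and 11.1% and 4.17% in lesion. The Sst-seen share was then 29.9% and 26.9% against 8.89% and 4.17%. At that limit both shares were lower in lesion, on 5 and 1 Pvalb-seen and 4 and 1 Sst-seen nuclei. A regional contrast between the 2 genes therefore depends on the measure and the limit.

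The Sst-seen share was also lower in the lesions, at 20.0% and 8.33% against 37.0% and 31.0%, and its part in the peptide values was not tested in the fit. Within Sst-seen nuclei, of which the lesions held 9 and 2, the Sst-type list summed to 5908 and 6451 CPM in control and Cxcl12-cKO parenchyma and 6839.8 and 6825 CPM in lesion. Reln in them was at 833 and 996 CPM in parenchyma and 588 and 1265 CPM in lesion.

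Among the lists of receptors the clearest difference was in Chrm2, the gene of the Gi-coupled muscarinic M2 receptor. It was at 109 and 105 CPM in control and Cxcl12-cKO parenchyma and 275 and 306 CPM in the lesions (log2 fold change 1.44, adjusted p = 2.99e-05 by edgeR, 0.00103 by DESeq2, 0.0204 after thinning). Its lesional UMIs came from 22 of 45 control and 9 of 24 Cxcl12-cKO nuclei. In the Cxcl12-cKO lesion 1 nucleus held 57.7% of the Chrm2 UMIs and in the control lesion 1 nucleus held 23.6%. Without the nucleus richest in Chrm2 of each matrix, a choice made after seeing the data, the levels were 97.4 and 94.8 CPM in parenchyma and 213 and 135 CPM in lesion, so the order of the regions stayed while the Cxcl12-cKO difference shrank.

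Chrm2 did not show the same pattern of levels in the other classes. In Adarb2 interneurons it was at 63.4 and 75.8 CPM in parenchyma and 59.7 and 20.7 CPM in lesion, and in excitatory neurons at 67.7 and 73.2 CPM in parenchyma and 81.7 and 76.8 CPM in lesion. In Pvalb-seen nuclei it was at 44.1 and 87.9 CPM in parenchyma and 212 and 221 CPM in lesion. The difference between classes was not tested.

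Other receptor and channel genes were called by edgeR and not by DESeq2. Adra1b, an α1-adrenergic receptor, was at 9.47 and 12.5 CPM in parenchyma and 25.4 and 44.2 CPM in lesion (log2 fold change 1.62, adjusted p = 0.021). Htr2c was lower, at 77.5 and 130.5 against 32.4 and 31.5 CPM (-1.57, adjusted p = 0.00109), and Grm3, encoding mGluR3, at 166 and 157 against 84.6 and 66.2 CPM (-1.07, adjusted p = 0.00268). Counts per list were 2 higher and 1 lower of 13 modulator receptors, and 1 lower of 22 glutamate receptor genes. Over all genes 2.04% were called higher and 3.36% lower. Kcna1 was at 108 and 84.2 against 56.4 and 53.6 CPM (-0.83, adjusted p = 0.0411), the 1 of 18 channel genes and 1 of 13 Pvalb-type genes called. Slc32a1 was at 36.1 and 37.7 against 11.3 and 12.6 CPM (-1.64, adjusted p = 0.0161). DESeq2 gave adjusted p = 0.66, 0.0958, 0.235, 1 and 0.822 for these 5 genes in that order.

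Synaptic lists gave no call between the regions by edgeR's quasi-likelihood test: 0 of 31 synapse organizers and 0 of 12 GABA-A receptor subunits, with median log2 fold changes of -0.01 and -0.06, against -0.03 over all genes. At an unadjusted p below 0.05, 5 of the synapse organizers and 4 of the GABA-A subunits passed. Over all 11115 genes 18.7% passed that unadjusted limit, and 2.04% were called higher and 3.36% lower. At those shares short lists hold few calls, so the counts in this paragraph do not set the lists apart. Interferon-response genes had 0 calls of 7 tested, with 3 at an unadjusted p below 0.05 and a median log2 fold change of 0.91. Their summed level was 72.9 and 86.9 CPM in control and Cxcl12-cKO parenchyma and 185 and 107 CPM in the lesions. DESeq2 called 0 genes of these 3 lists. The immediate early list had 0 calls of 5 and the axon injury list 0 of 8 by edgeR, with 2 and 2 at an unadjusted p below 0.05 and 0 and 0 calls by DESeq2. Immediate early genes summed to 183 and 186 CPM in parenchyma and 147 and 114 CPM in lesion.

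In the perineuronal net list Ptprz1, a receptor phosphatase also made by glia, was the 1 of 10 called, at 132 and 122 against 52.2 and 94.6 CPM (log2 fold change -0.90, adjusted p = 0.03 by edgeR, 0.897 by DESeq2). In the Sst-type list Nos1 was higher, at 44.5 and 20.2 against 71.9 and 75.7 CPM (1.16, adjusted p = 0.0226 by edgeR, 0.0578 without the library term), and its lesional UMIs came from 6 control nuclei and 1 Cxcl12-cKO nucleus. Without the richest nucleus of each matrix Nos1 was at 36.7 and 10.7 CPM in parenchyma and 47.1 and 0 CPM in lesion, so the order turned in Cxcl12-cKO. The transcription factor genes Foxp1 and Foxp2, named after their values were seen, were higher by edgeR. Foxp1 was at 201 and 215 against 437 and 410.1 CPM (1.03, adjusted p = 4.51e-04) and Foxp2 at 30.8 and 24.6 against 138 and 82.0 CPM (1.99, adjusted p = 3.20e-05). Lesional Foxp2 was seen in 17 and 3 nuclei, and 1 Cxcl12-cKO nucleus held 73.1% of it. Without the richest nucleus of each matrix Foxp2 was at 19.1 and 22.7 CPM in parenchyma and 92.9 and 22.9 CPM in lesion. Without nuclei that carried non-neuronal RNA, described next, neither was called (adjusted p = 0.0686 and 0.398).

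**Figure D4:**
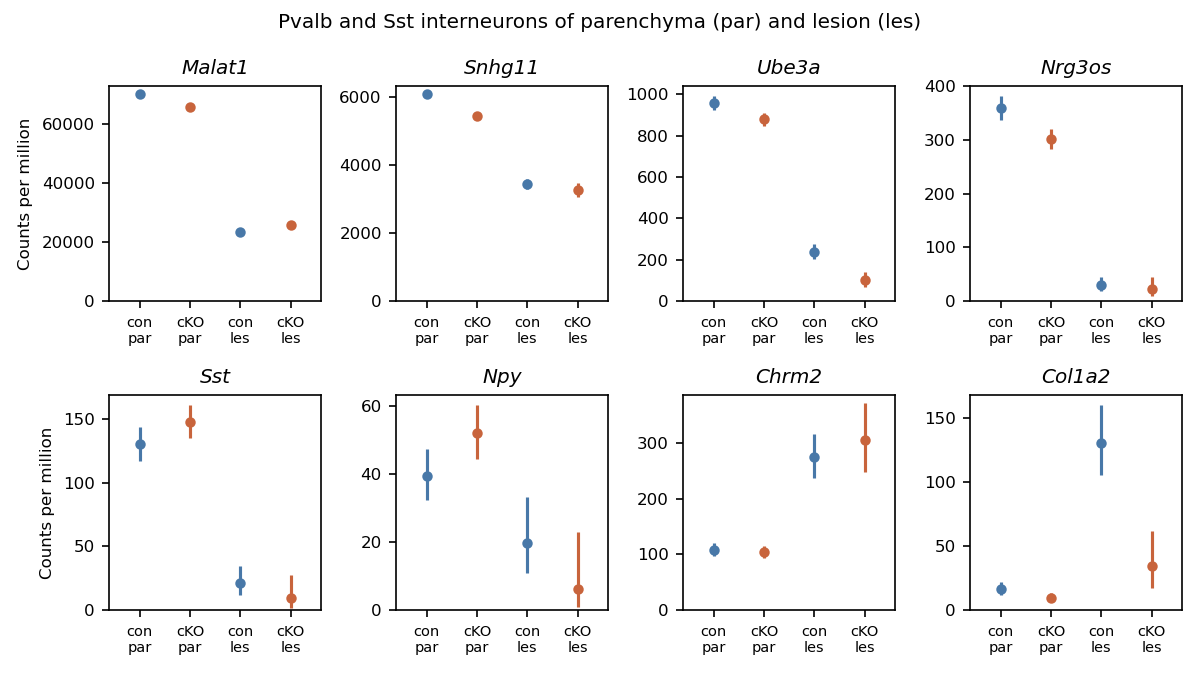
Level in CPM (vertical axes, one panel per gene) of Malat1, Snhg11, Ube3a, Nrg3os, Sst, Npy, Chrm2 and Col1a2 in parenchymal and lesional members of control and Cxcl12-cKO, with 95% Poisson counting bars. The first 6 stand lower in lesion than in parenchyma in both libraries, and Chrm2 and Col1a2 stand higher.

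Lesional members also held more RNA of fibroblasts and myeloid cells. Col1a1, Col1a2, Col3a1 and Dcn, which encode fibrillar collagens and decorin, were all 4 of the tested fibroblast genes. All were higher in lesion, against 2.04% of all genes. Col1a2 was at 16.5 and 9.49 CPM in parenchyma and 131 and 34.7 CPM in lesion (log2 fold change 2.65, adjusted p = 2.11e-05 by edgeR). The 6 fibroblast genes summed to 33.3 and 32.3 CPM in control and Cxcl12-cKO parenchyma and 268 and 189 CPM in the lesions. The 8 myeloid genes summed to 81.7 and 84.8 CPM and 192 and 101 CPM, with 1 of 5 called, Gpnmb of lipid-laden macrophages (1.55, adjusted p = 0.0156). Apoe, chosen after its values were seen, went from 30.8 and 49.8 to 155 and 132 CPM (1.90, adjusted p = 3.96e-05).

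This RNA was concentrated in few nuclei. In control lesion 8 of 45 members had 5 or more fibroblast UMIs and held 78.9% of all fibroblast UMIs, the highest with 49, and in Cxcl12-cKO lesion 2 of 24 held 73.3%. In control lesion 5 members held 68.4% of the myeloid UMIs. The median lesional member held 1 and 0.5 fibroblast UMIs. Nuclei with 5 or more UMIs of any non-neuronal list numbered 10 in control parenchyma, 23 in Cxcl12-cKO parenchyma, 11 in control lesion and 3 in Cxcl12-cKO lesion.

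Without those nuclei, an alternative chosen after seeing the data, 130 genes were higher and 370 lower in the lesion by the same test. Of the 227 higher genes, 61 (26.9%) were called again, and of the 374 lower genes 304 (81.3%). Malat1, Ube3a, Chrm2, Npy and Cort were called in that fit. Crhbp, Kcna1, Slc32a1 and Gpnmb were not (adjusted p = 0.161, 0.296, 0.0637 and 0.255 by edgeR). Col1a1 was the 1 fibroblast gene called (adjusted p = 0.0317 by edgeR), and Dcn and the 8 higher genes named by size held too few UMIs to be tested.

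**Figure D5:**
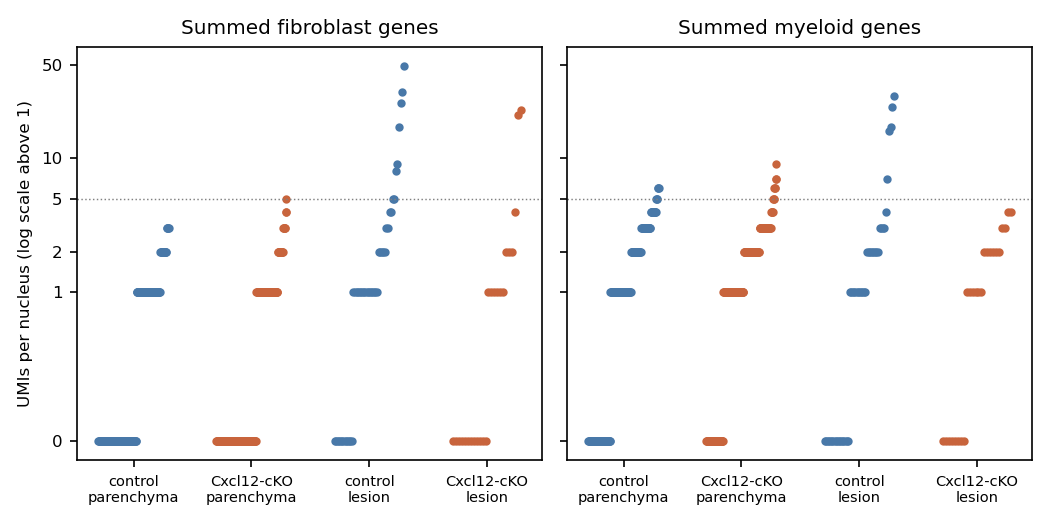
UMIs per nucleus of the fibroblast list and of the myeloid list (vertical axes, linear near 0 and logarithmic above) for every member of the 4 matrices, 1 point per nucleus, with a dotted line at 5 UMIs. Most nuclei lie at 0 to 2, and the highest fibroblast value, 49, is in control lesion.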

How the data were processed

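Nuclei of injured cortex were profiled by single-nucleus RNA-seq in 1 control and 1 Cxcl12-cKO library, each pooling 1 male and 1 female mouse. The deposited values are raw UMI counts per gene and barcode, made by the authors with Cell Ranger 9.0.0 on GRCm39, per the labels' processing notes, and split by multiplexing tag into lesion and parenchyma matrices, and no further normalization was applied to them. The matrices held 33696 gene features, 52 of which share a symbol with another.

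Members were picked by the UMI limits given in the report. The members and gene lists were chosen with earlier results of these data known. Counts were summed per library, region and class, and converted to CPM. Intervals are exact 95% Poisson, Clopper-Pearson or conditional binomial intervals, cover counting error only, and treat UMIs as independent. Genotype ratios had 0.5 added to each sum. They were made between 2 libraries, without a test. Lesion and parenchyma were compared on 4 sums with edgeR 4.0.16 (R 4.3.3): filterByExpr by region, TMM factors, a quasi-likelihood fit with a library term and Benjamini-Hochberg adjustment at 0.05, with DESeq2 1.42.0 as an alternative. P-values then rest on 2 libraries that also differ in genotype. Pvalb-seen and Sst-seen groups and other cell classes are described without a test.

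Nuclei were assigned to the female or male mouse by Xist or Y-linked UMIs, as a description, and nuclei with both or neither were left out of that split. No doublet caller was run, and the percentile filter of the study was tried as an alternative. Thinning drew 3000 UMIs per nucleus. Genes named by size were, for the genotypes, the 8 highest and 8 lowest log2 ratios past 1.5-fold among genes with 100 or more UMIs, with a counting interval off 0 and the same direction in both sexes. For the regions they were the 8 highest and 8 lowest fold changes at adjusted p below 0.05 with the same direction in both libraries, and between Pvalb-seen and Sst-seen nuclei the 10 largest smaller-of-both ratios on each side. Members of the gene lists could be named with their list. Each fit was tested on simulated counts. Tables were made in Python 3.11.15 with pandas 2.3.3, numpy 2.4.6 and scipy 1.17.1, and figures with matplotlib 3.10.9. A few genes of the lists are not reported here, though they stay in the counts.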

Additional observations from a re-analysis of the deposited data

Results flagged for a closer look

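Several genes had genotype ratios of opposite sign in nuclei assigned to the female and to the male mice of the parenchyma. Each sex stands for 1 mouse per genotype, and the difference between the sexes was not tested. Values below are the log2 ratio of Cxcl12-cKO to control in the female mice minus that in the male mice.

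Genes of the Sst and Martinotti repertoire stood together. In the female mice Reln went from 446 CPM in control to 255 CPM in Cxcl12-cKO, and in the male mice from 195 to 449 CPM, a difference of ratios of -2.01. Unc13c went from 184 to 113 CPM in the female mice and from 98.0 to 286 CPM in the male mice (-2.24). Grin3a went from 563 to 440.1 CPM and from 413 to 653 CPM in the same order (-1.01). The differences were -0.85 for Synpr, -0.76 for Satb1, -0.75 for Cntn4 and -0.97 for the summed list of genes typical of Sst cells, and the difference was -1.60 for the summed Martinotti list. In all of these the level was lower in Cxcl12-cKO in the female mice and higher in the male mice.

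The Sst-seen share differed in the same directions, with intervals that overlapped within each sex. It was 29 of 71 members (40.8%, 29.3 to 53.2) in the control female and 23 of 74 (31.1%, 20.8 to 42.9) in the Cxcl12-cKO female. In the males it was 20 of 58 (34.5%, 22.5 to 48.1) in control and 23 of 60 (38.3%, 26.1 to 51.8) in Cxcl12-cKO. Within Sst-seen nuclei alone Reln still had a log2 ratio of -0.41 for females and of 1.07 for males, and Unc13c of -0.41 and 1.23.

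Other genes had the opposite order, higher in Cxcl12-cKO in the female mice and lower in the male mice. Il1rapl2 went from 1239 to 1415 CPM in the female mice and from 2137 to 1327 CPM in the male mice, a difference of ratios of 0.88. Nrg1 differed by 0.95 and Grm3 by 0.79. Tacr1, the substance P receptor gene, differed by 3.37 and Gabrg1 by 2.49, on 11 and 7 UMIs in the Cxcl12-cKO male. Grm4 and Kcnq3 were again lower in Cxcl12-cKO in the female mice and higher in the male mice, with differences of -3.52, on 4 UMIs in the control male, and -0.39.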

How the results depend on the processing

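The genotype share of genes past 1.5-fold followed gene depth and the mice used. The higher share, 1.63% as reported, was 2.46% with female mice only, 2.62% with male mice only, 4.33% with genes of 30 UMIs or more and 0.905% with genes of 300 UMIs or more. The lower share, 0.919% as reported, was 1.77%, 2.06%, 4.06% and 0.175% in the same order. The share of members among GABAergic nuclei, with male mice only, was 36.7% in control lesion (52.9% as reported) and 61.2% in Cxcl12-cKO parenchyma (55.2% as reported). Regional calls, 227 higher and 374 lower as reported, were 40 and 64 by DESeq2 and 9 and 26 after thinning to 3000 UMIs, and removing nuclei with 5 or more non-neuronal UMIs, an alternative chosen after seeing the data, gave 130 and 370. The cause was not tested. The study's percentile filter gave 1.18% higher and 1.24% lower, and removing the non-neuronal nuclei 1.27% and 1.27%, without the excess of higher genes. The 57 recomputed values of these summaries not listed as moved stayed within 1.5 times or the counting interval of those reported, the lower regional calls with no filter being 511. The library term serves as the replicate block in the regional fit, and without it 302 genes were higher and 434 lower. Of the 16 regional genes named by size DESeq2 called 2, A2m and Mdfic, gave no adjusted p for 11 and did not call Gm31763, Gm48727 and Gm2516, and Gm2516 was not called without the library term. No value reversed under these alternatives, but Nos1 turned from higher to lower in the Cxcl12-cKO lesion without its richest nucleus. Leaving out either library leaves 1 regional difference with no test. Fewer than 50 lesional nuclei per library limit regional values of genes with few UMIs, and 1 library per genotype limits all genotype values.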
